A study of Danio rerio with 2 samples.

Results

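The genes described here encode the enzymes and regulators that build fatty acids, triglycerides and cholesterol. They were chosen by feature name: 25 of 38 listed gene names were present in the gene tables, and 19 further features had names beginning with elovl, agpat, lpin or dgat. This gave 44 genes among 27098 features. Values came from RNA sequencing of 2 zebrafish libraries, the first a pool of RNA from livers dissected from adults and the other a pool from whole embryos, after 48 h with compounds toxic to the human liver. The 9 compounds were valproic acid, tetracycline, paraquat, chlorpromazine, acetaminophen, thioacetamide, amiodarone, cyclosporine A and 17a-ethynylestradiol, and all of them are named for both pools. An embryo sample combined 15 embryos, and equal amounts of RNA from each sample went into a pool. The sources used here do not give strain, adult age or sex, embryo age, the number of samples or the presence of unexposed fish, so tissue, age and exposure cannot be told apart, and no value belongs to 1 compound. With 1 library per source no test was possible, and the differences have no replicate check.

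Fatty acids are made in the cytosol from acetyl-CoA, with reducing power carried by NADPH, and are then lengthened by elongases, given double bonds by desaturases and joined to glycerol. Cholesterol starts from the same acetyl-CoA and passes through mevalonate, farnesyl diphosphate, squalene and lanosterol. In vertebrates the SREBP factors switch on both routes, and Insig proteins hold SREBP and its escort Scap in the endoplasmic reticulum when sterols are plentiful. The liver is a main site of both routes, and tissues such as brain, retina and skin also make long-chain lipids for their own membranes.

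The liver library held 13020149 counts and the embryo library 11408727, counted as total gene reads. CPM are these counts scaled by the library total, and ratios are liver over embryo CPM with an exact 95% interval in brackets. Intervals cover counting error only and compare these libraries, not the conditions. A gene was called where the whole interval lay at or beyond 4-fold and the higher library had at least 10 counts. The 5 hepatocyte markers summed to 56787 CPM in livers and 2164 CPM in embryos, and elavl3 and rho, markers of neurons and rods, were at 0 in livers. The marker sums of other cells in livers and in embryos were 3.38 and 40705 CPM for skeletal muscle, 2.46 and 1454 CPM for neurons, 0.614 and 4579 CPM for retina and lens, and 15.7 and 56.0 CPM for myelin glia. They were 910 and 3546 CPM for exocrine pancreas, 83.3 and 1049 CPM for intestine, 22.1 and 54.5 CPM for adipocytes and 6.99 and 2.104 CPM for oocytes. The erythrocyte markers split, with the globin genes hbaa1 and hbba1 at 67.9 and 118 CPM in livers and 0 in embryos, and hbae1.1 at 0 in livers and 135 CPM in embryos. The yolk syncytial markers also split, with apobb.1, a gene the liver also uses, at 21898 CPM in livers and 3653 CPM in embryos, mttp at 220.0 and 91.3 CPM, ctsla at 181 and 626 CPM and rbp4l at 0 and 328 CPM. In such bulk pools fewer cells of a type and less RNA per cell cannot be told apart.

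Most of these genes had a ratio above that of the typical gene, and the calls among them lay in desaturation, elongation and NADPH supply. All 44 had at least 10 counts in 1 library, and scdb, elovl4a and elovl7b reached it in embryos only. By total counts 3 genes (6.82%) were called higher in livers, against 3.35% of 21750 measured features, and 6 (13.6%) were called higher in embryos, against 30.9%. The median log2 ratio was 0.18 for the 44 genes and -1.60 for all measured features, and 37 of the 44 ratios lay above that all-feature median. Trimmed-mean (TMM) scaling, which discounts the most unequal and most abundant transcripts, multiplied every ratio by 2.55. It gave 16 genes called higher in livers (36.4%, against 8.06% of all features) and 4 in embryos (9.09%, against 15.8%). By total counts 23 ratios were above 1 and 21 below it, and 11 of those 21 turned above 1 with TMM factors, so that directions near 1 depend on the scale.

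**Figure D1:**
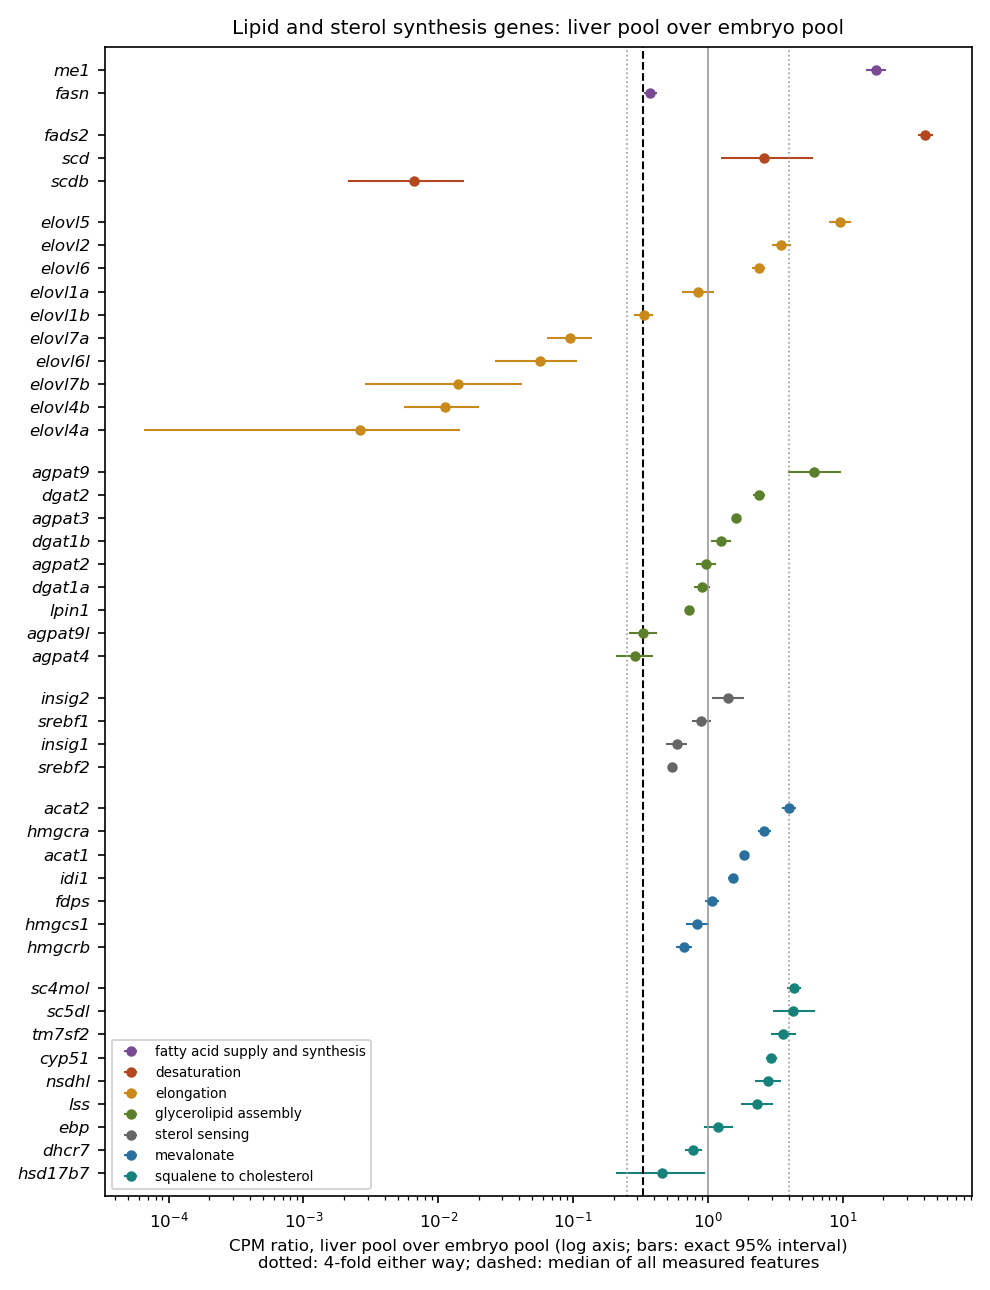
CPM ratios of the 44 genes, liver over embryo pool on a log axis, grouped by step, with exact 95% intervals as bars. The solid line marks equality, dotted lines mark 4-fold and the dashed line marks the all-feature median ratio of 0.330; fads2, me1 and elovl5 lie beyond the upper dotted line with their whole intervals, and 6 desaturation and elongation genes lie below the lower one. Of the 21 ratios below 1, 11 turn above it with TMM factors.

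The desaturases held the most unequal pair. The front-end desaturase gene fads2, whose product makes long-chain polyunsaturated fatty acids, had 11683 counts (897 CPM) in livers and 250 counts (21.9 CPM) in embryos. Its ratio of 40.9 (36.1 to 46.6), which was called, exceeded that of 99.4% of measured features. Per exon length fads2 was the most abundant of the 44 genes in livers, at 536 RPKM, and ranked 22 among them in embryos, at 12.3 RPKM. Exon-exon junctions of fads2 were crossed by 4481 liver reads and 86 embryo reads. The stearoyl-CoA desaturase gene scdb, whose product makes monounsaturated fatty acids, had the opposite call, with 5 counts (0.384 CPM) in livers and 666 counts (58.4 CPM) in embryos. It was 152-fold lower in livers (64.8 to 469.7). None of the 5 liver reads of scdb lay in an exon, against 632 exon reads in embryos. With the floor of 3 counts per library in place of 0, scdb was 253-fold lower in livers by exon reads. The interval of its exon ratio ended at 0.00487. Its paralog scd was not called, with 30 liver counts (2.30 CPM) and 10 embryo counts (0.877 CPM) and a ratio of 2.63 (1.25 to 6.03). Of the RPKM summed over the 3 genes, fads2 made up 99.5% in livers and 27.9% in embryos, where scdb made up 70.0%.

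The elongases had 1 of 10 genes called higher in livers and 5 in embryos, against 3.35% and 30.9% of all features. Their make-up differed between the libraries. The 10 elovl genes summed to 160 RPKM in livers and 139 RPKM in embryos. The polyunsaturated chain elongases elovl2 and elovl5 and the palmitate elongase elovl6 together gave 91.3% of this sum in livers and 25.0% in embryos. Of these, elovl5 was called higher in livers, with 1307 counts (100.4 CPM) in livers and 120 counts (10.5 CPM) in embryos and a ratio of 9.54 (7.91 to 11.6). Counts of elovl2 were 750 in livers (57.6 CPM) and 188 in embryos (16.5 CPM), a ratio of 3.50 (2.98 to 4.12). The most abundant elongase in livers per exon length was elovl6, at 57.9 RPKM in livers and 20.7 RPKM in embryos. Its counts were 1082 in livers (83.1 CPM) and 398 in embryos (34.9 CPM), a ratio of 2.38 (2.12 to 2.68). The ratios of elovl2 and elovl6 were called with TMM factors, as 8.92 and 6.08, and not with library totals. The ratios of fads2, elovl5 and elovl2 were the highest of the 13 desaturases and elongases, although the interval of elovl2 lay within that of scd. The products of fads2, elovl2 and elovl5 act on the same polyunsaturated chains, but this set was picked out by its values. Enzymes of unsaturated chains were not all higher in livers. The ratios of elovl7a and elovl7b, whose products also act on unsaturated chains, were 0.0954 (0.0640 to 0.138) and 0.0141 (0.00287 to 0.0417).

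Of the other elongases, 5 were called higher in embryos, against 30.9% of all features. The very-long-chain elongase gene elovl4a, of a family known from retina, brain and skin, had 1 liver count (0.0768 CPM) and 336 embryo counts (29.5 CPM), a liver to embryo ratio of 0.00261 (6.58e-05 to 0.0146), and the liver read was outside exons. Its paralog elovl4b had 11 counts (0.845 CPM) in livers and 861 counts (75.5 CPM) in embryos, and 1 of the 11 liver reads lay in an exon. It was 89.3-fold lower in livers (49.7 to 179.6), and its ratio by exon reads was 0.00112 (0.0000282 to 0.00624). In embryos elovl4b had the highest level of the 10 elongases, 27.1 RPKM (25.2 to 29.2), with an interval that overlapped that of elovl1b at 26.2 RPKM (24.1 to 28.5). The elongases elovl7b and elovl7a, which act on saturated and unsaturated long chains, were also called. The first had 3 liver counts (0.230 CPM) and 187 embryo counts (16.4 CPM) and was 71.1-fold lower in livers (24.0 to 348), and the other had 32 liver counts (2.46 CPM) and 294 embryo counts (25.8 CPM) and was 10.5-fold lower in livers (7.27 to 15.6). The elovl6-like gene elovl6l had 10 counts (0.768 CPM) in livers and 155 counts (13.6 CPM) in embryos, and was 17.7-fold lower in livers (9.36 to 37.6). With TMM factors the calls of elovl7a and elovl6l were lost, at ratios of 0.243 and 0.144. This left 3 of the 10 elongases called higher in embryos, against 15.8% of all features. The 5 genes, grouped by their calls, together had 3 junction reads among 57 counts in livers and 232 among 1833 counts in embryos. Junction reads are part of the counts that gave the calls, so they are no separate check. Markers of retina, lens and neurons also stood higher in embryos, as given above, and their part in these values was not tested. The remaining pair acts on saturated very long chains and was not called: elovl1b had 214 liver counts (16.4 CPM) and 560 embryo counts (49.1 CPM), and elovl1a had 110 liver counts (8.45 CPM) and 114 embryo counts (9.99 CPM). Their ratios were 0.335 (0.285 to 0.393) and 0.845 (0.645 to 1.11), and that of elovl1a turned to 2.16 with TMM factors.

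**Figure D2:**
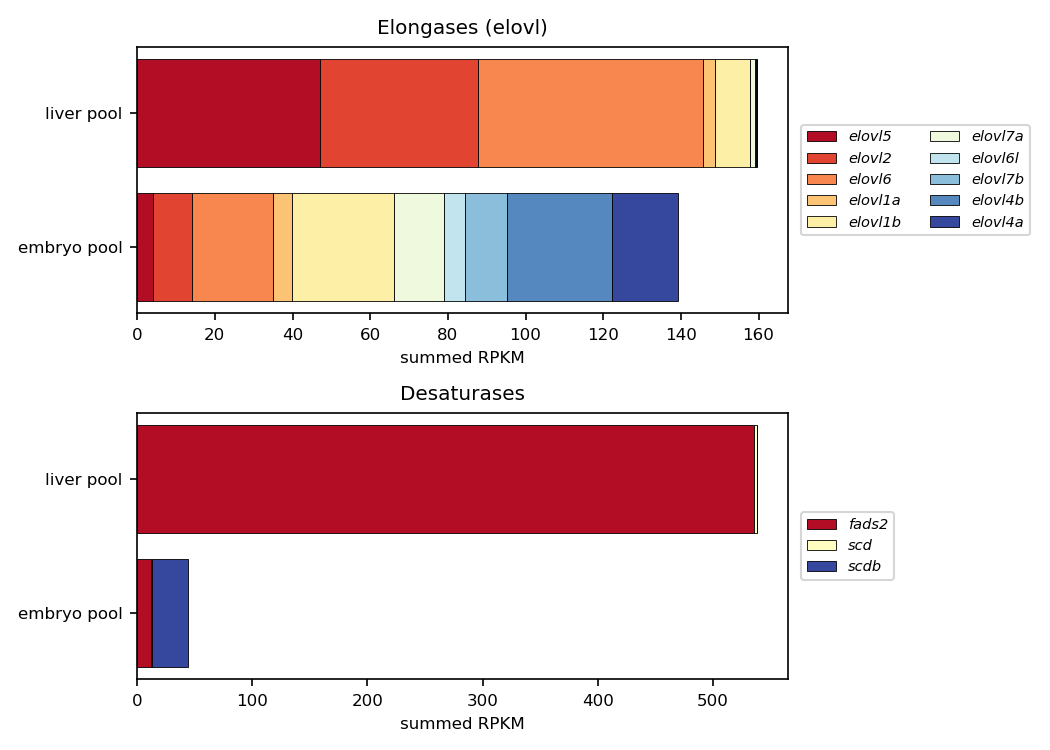
Summed RPKM of the 10 elongases (upper panel) and 3 desaturases (lower panel), liver pool above embryo pool, with each gene as a coloured segment ordered by its liver over embryo ratio. The elongase bars reach 160 RPKM in livers and 139 RPKM in embryos with different segments, and the liver desaturase bar is almost wholly fads2.

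The 2 listed genes of fatty acid synthesis and its supply differed from each other. The fatty acid synthase gene fasn was not called, with 453 counts (34.8 CPM) in livers and 1058 counts (92.7 CPM) in embryos and a ratio of 0.375 (0.335 to 0.419), near the all-feature median of 0.330. With TMM factors the ratio of fasn was 0.958. The cytosolic malic enzyme gene me1, whose product makes NADPH, had 2851 counts (219 CPM) in livers and 142 counts (12.4 CPM) in embryos, and its ratio of 17.6 (14.9 to 21.0) was called. Unique reads were 44.9% of its liver counts and 38.7% of its embryo counts, and by unique reads alone the ratio of me1 was 21.7 (16.5 to 28.9). The acetyl-CoA carboxylase genes, whose products make the malonyl-CoA that fatty acid synthase uses, were found under other feature names. By current symbols they are acacb (LOC556236), with 2071 liver counts (159 CPM) and 1472 embryo counts (129 CPM), and acaca (listed under an im clone name), with 1270 liver counts (97.5 CPM) and 1408 embryo counts (123 CPM). Their ratios were 1.23 (1.15 to 1.32) and 0.790 (0.732 to 0.853), and that of acaca turned to 2.02 with TMM factors. The names acly and mlxipl matched no feature and were not analysed here, and neither did the bare names mvd and sqle, whose enzymes are described below by the genes mvda and sqlea.

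None of the 9 genes of triglyceride and phospholipid assembly was called by total counts, and their median log2 ratio was -0.03. By the same counts 3.35% of all features were called higher in livers and 30.9% in embryos. With TMM factors dgat2 and agpat9 were called higher in livers, 2 of the 9 against 8.06% of all features. The lysophosphatidate acyltransferase gene agpat3 was the most abundant per exon length, at 94.9 RPKM in livers and 57.4 RPKM in embryos. It had 3192 liver counts (245 CPM) and 1721 embryo counts (151 CPM), a ratio of 1.63 (1.53 to 1.72), and 36.0% of the liver counts and 37.7% of the embryo counts were unique. The last step of triglyceride synthesis is catalysed by the products of dgat2 and of the unrelated dgat1 genes. For dgat2 the counts were 1301 in livers (99.9 CPM) and 475 in embryos (41.6 CPM), a ratio of 2.40 (2.16 to 2.67) that was called with TMM factors. The dgat1 genes were closer to 1, at 1.25 (1.05 to 1.49) for dgat1b, with 321 liver counts (24.7 CPM) and 225 embryo counts (19.7 CPM), and 0.909 (0.797 to 1.04) for dgat1a, with 469 liver counts (36.0 CPM) and 452 embryo counts (39.6 CPM). With TMM factors dgat1a turned to 2.32. The glycerol-phosphate acyltransferase gene agpat9 (gpat3 by its current symbol) lay farthest from the median of the 9. It had 167 counts (12.8 CPM) in livers and 24 counts (2.104 CPM) in embryos, a ratio of 6.10 (3.96 to 9.78) whose interval began just under 4-fold, and none of its reads was unique, so its value is uncertain. The related gene agpat9l had a ratio of 0.332 (0.260 to 0.420), with 98 liver counts (7.53 CPM) and 259 embryo counts (22.7 CPM). Unique reads were 46.9% of its liver counts and 51.0% of its embryo counts. By exon reads the ratio of agpat9l was 0.235 (0.176 to 0.310). The acyltransferase gene agpat4 had the lowest ratio of the 9, 0.288 (0.207 to 0.396), with 53 liver counts (4.07 CPM) and 161 embryo counts (14.1 CPM). The phosphatidate phosphatase gene lpin1 had 1349 counts (104 CPM) in livers and 1624 counts (142 CPM) in embryos, a ratio of 0.728 (0.677 to 0.783) that turned to 1.86 with TMM factors. The acyltransferase gene agpat2 had 290 liver counts (22.3 CPM) and 260 embryo counts (22.8 CPM) and a ratio of 0.977 (0.824 to 1.16), or 2.49 with TMM factors.

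None of the 4 sterol sensing genes was called with library totals, TMM factors or size factors. By library totals 3.35% of all features were called higher in livers and 30.9% in embryos. The gene of the SREBP factor of the cholesterol route, srebf2, had 1831 counts (141 CPM) in livers and 2974 counts (261 CPM) in embryos, a ratio of 0.539 (0.509 to 0.572) that turned to 1.38 with TMM factors. Only 42.5% of its liver reads and 45.9% of its embryo reads lay in exons, against 90.1% and 85.6% of all reads of the libraries. The related factor gene srebf1, which acts more on fatty acid genes in mammals, had 310 counts (23.8 CPM) in livers and 303 counts (26.6 CPM) in embryos, a ratio of 0.896 (0.763 to 1.05), or 2.29 with TMM factors. The retention genes insig1 and insig2 differed by intervals that did not overlap. Counts of insig1 were 211 in livers (16.2 CPM) and 314 in embryos (27.5 CPM), a ratio of 0.589 (0.492 to 0.703) that turned to 1.50 with TMM factors, and insig2 had 147 liver counts (11.3 CPM) and 91 embryo counts (7.98 CPM), a ratio of 1.42 (1.08 to 1.86). The escort gene scap, found as LOC558292, had 151 liver counts (11.6 CPM) and 242 embryo counts (21.2 CPM), a ratio of 0.547 (0.443 to 0.673), or 1.40 with TMM factors.

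**Figure D3:**
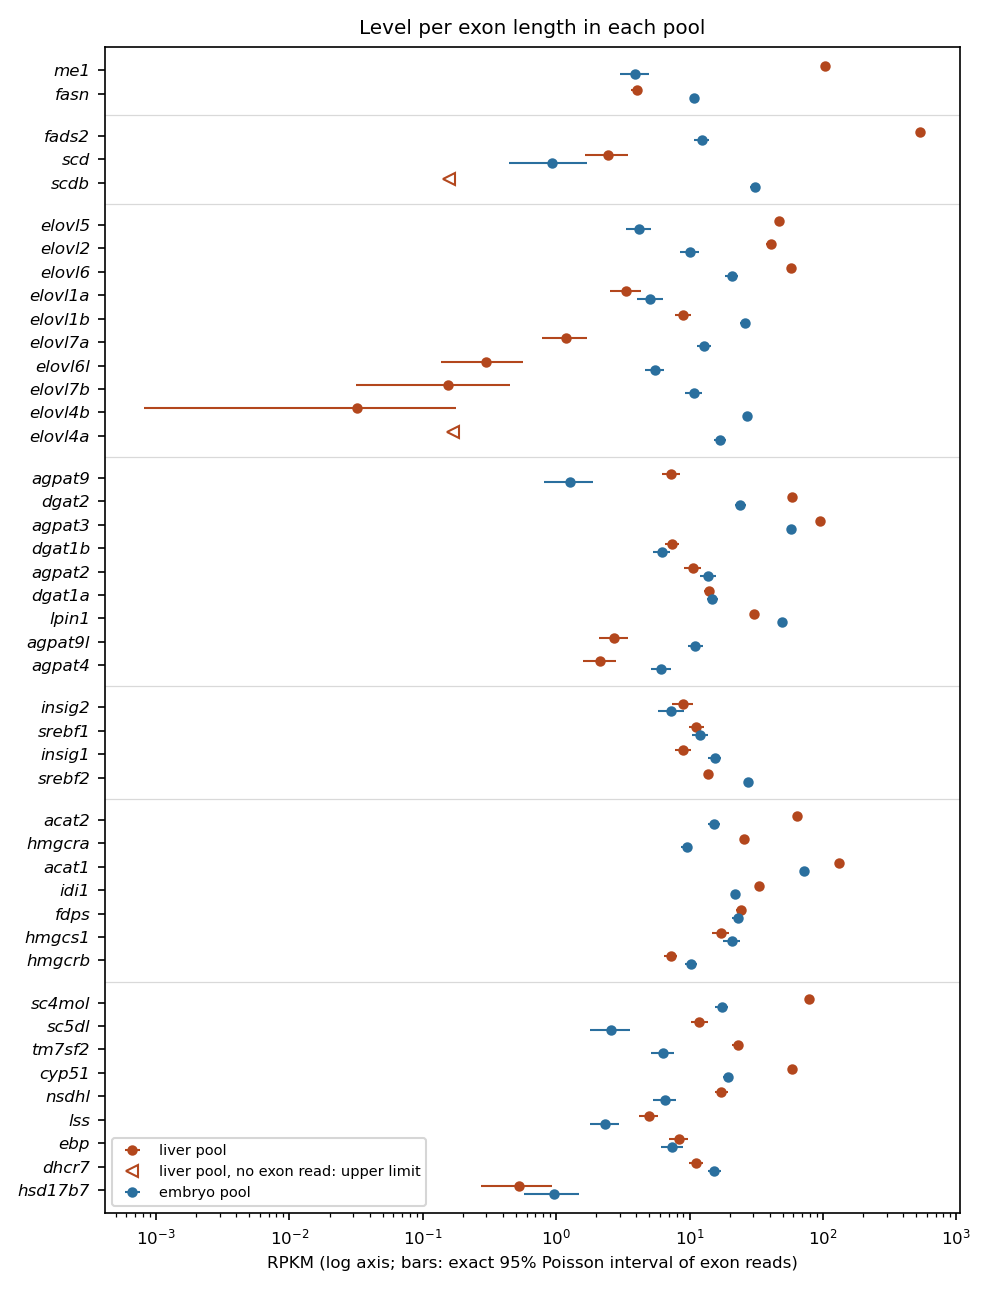
RPKM of each gene in the liver pool (orange) and the embryo pool (blue) on a log axis, with exact 95% Poisson intervals of the exon reads as bars. Open triangles mark upper limits where the liver pool had no exon read (scdb and elovl4a); levels run up to 536 RPKM for fads2 in livers and 72.0 RPKM for acat1 in embryos.

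The 7 genes of the mevalonate route had ratios between 0.668 and 3.99, and none was called by total counts. Among all features 3.35% were called higher in livers and 30.9% in embryos. The cytosolic thiolase gene acat2, which opens the route, had 1657 counts (127 CPM) in livers and 364 counts (31.9 CPM) in embryos, a ratio of 3.99 (3.56 to 4.48). The mitochondrial thiolase gene acat1, which serves ketone body metabolism, was the most abundant of the 7 per exon length, at 132 RPKM in livers and 72.0 RPKM in embryos. It had 2883 liver counts (221 CPM) and 1350 embryo counts (118 CPM), a ratio of 1.87 (1.75 to 1.998). HMG-CoA reductase, the rate-limiting enzyme, has a pair of genes that differed. For hmgcra the counts were 1357 in livers (104 CPM) and 451 in embryos (39.5 CPM), a ratio of 2.64 (2.37 to 2.94). For hmgcrb they were 343 in livers (26.3 CPM) and 450 in embryos (39.4 CPM), a ratio of 0.668 (0.579 to 0.770). Their levels per exon length were 25.8 RPKM for hmgcra and 7.23 RPKM for hmgcrb in livers, and 9.54 and 10.3 RPKM in embryos, where the intervals overlapped. The HMG-CoA synthase gene hmgcs1 had 194 counts (14.9 CPM) in livers and 203 counts (17.8 CPM) in embryos, a ratio of 0.837 (0.684 to 1.02), on a gene model with 839 exon bases. The isomerase gene idi1 had a ratio of 1.54 (1.41 to 1.68) and the farnesyl diphosphate synthase gene fdps one of 1.08 (0.959 to 1.22), with 1434 and 626 counts in livers and 815 and 508 counts in embryos. With TMM factors acat1, acat2 and hmgcra were called higher in livers, against 8.06% of all features. With these factors hmgcrb and hmgcs1 turned to 1.70 and 2.14.

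Of the 9 genes from lanosterol synthesis to cholesterol, 6 had ratios between 2.31 and 4.36. These 6 were picked out by their values, and the interval of sc4mol lay above those of lss, cyp51 and nsdhl. None of the 9 was called by total counts, against 3.35% of all features in livers and 30.9% in embryos. The same 6 were called higher in livers with TMM factors, against 8.06% of all features. The median log2 ratio of the 9 was 1.48. The sterol methyl oxidase gene sc4mol (msmo1 by its current symbol) was the most abundant of the 9 in livers per exon length, at 78.9 RPKM in livers and 17.5 RPKM in embryos. It had 1733 liver counts (133 CPM) and 348 embryo counts (30.5 CPM), a ratio of 4.36 (3.89 to 4.91) whose interval began just under 4-fold, and was called by unique reads at 4.69 (4.17 to 5.28). The lanosterol demethylase gene cyp51, whose fungal relative is the target of azole drugs, had 1923 counts (148 CPM) in livers and 571 counts (50.05 CPM) in embryos, a ratio of 2.95 (2.69 to 3.25). The sterol desaturase gene sc5dl had 191 liver counts (14.7 CPM) and 39 embryo counts (3.42 CPM), a ratio of 4.29 (3.03 to 6.22), and the sterol reductase gene tm7sf2 had 465 liver counts (35.7 CPM) and 112 embryo counts (9.82 CPM), a ratio of 3.64 (2.95 to 4.51). The lanosterol synthase gene lss opens this segment. It had 206 liver counts (15.8 CPM) and 78 embryo counts (6.84 CPM), a ratio of 2.31 (1.78 to 3.04), and the dehydrogenase gene nsdhl had 366 liver counts (28.1 CPM) and 115 embryo counts (10.1 CPM), a ratio of 2.79 (2.26 to 3.47). The other 3 genes were lower on this scale. The isomerase gene ebp had 157 liver counts (12.1 CPM) and 115 embryo counts (10.1 CPM), a ratio of 1.20 (0.934 to 1.54). The reductase gene dhcr7, which completes cholesterol in 1 branch of the route, had 330 counts (25.3 CPM) in livers and 369 counts (32.3 CPM) in embryos, a ratio of 0.784 (0.673 to 0.912) that turned to 2.0 with TMM factors. Unique reads were 52.1% of its liver counts and 49.6% of its embryo counts. By unique reads alone the ratio of dhcr7 was 0.875 (0.706 to 1.08), an interval that includes 1. The ketoreductase gene hsd17b7 lay farthest from the median, with 12 counts (0.922 CPM) in livers and 23 counts (2.02 CPM) in embryos, and its ratio of 0.457 (0.207 to 0.957) turned to 1.17 with TMM factors. Unique reads were 8.33% of the liver counts of hsd17b7 and 30.4% of its embryo counts, so its value is uncertain.

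Cholesterol genes found by current symbol under other feature names filled gaps in this order. The diphosphomevalonate decarboxylase gene mvda (zgc:100824) had 247 liver counts (18.97 CPM) and 82 embryo counts (7.19 CPM), a ratio of 2.64 (2.05 to 3.43), and the squalene synthase gene fdft1 (si:ch73-107c13.2) had 186 liver counts (14.3 CPM) and 233 embryo counts (20.4 CPM), a ratio of 0.699 (0.574 to 0.852) that turned to 1.79 with TMM factors. The kinase genes pmvk (zgc:162701) and mvk (zgc:103473), which act on mevalonate in turn, had ratios of 2.003 (1.33 to 3.07) and 0.863 (0.599 to 1.24), and that of mvk turned to 2.20 with TMM factors. The squalene epoxidase gene sqlea (zgc:171801) was chosen after its values were seen, and had 417 liver counts (32.0 CPM) and 102 embryo counts (8.94 CPM), a ratio of 3.58 (2.88 to 4.49). Over 19 genes set in pathway order, sqlea not included, 11 intervals by total counts lay above 1 and 4 lay below it. With TMM factors 9 of the 19, mvda among them, were called higher in livers by total counts, against 8.06% of all features. Unique reads were 55.5% of the liver counts of mvda and 79.3% of its embryo counts. With library totals its ratio by unique reads was 1.96 (1.45 to 2.68), so its call is uncertain. Outside sterol synthesis, the elongase gene elovl8a (zgc:153394) had 8 liver counts (0.614 CPM) and 85 embryo counts (7.45 CPM) and was called higher in embryos, whereas its paralog elovl8b (zgc:112263) had 186 liver counts (14.3 CPM) and 57 embryo counts (4.996 CPM) and a ratio of 2.86 (2.11 to 3.92). The acyltransferase genes gpam (LOC100332911) and agpat5 (zgc:154071) had ratios of 0.235 (0.181 to 0.302) and 0.593 (0.493 to 0.713), and that of agpat5 turned to 1.51 with TMM factors. Of the 11 genes found under other names elovl8a alone was called by total counts, and its call was lost with TMM factors. Of all features 30.9% were called higher in embryos by total counts.

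**Figure D4:**
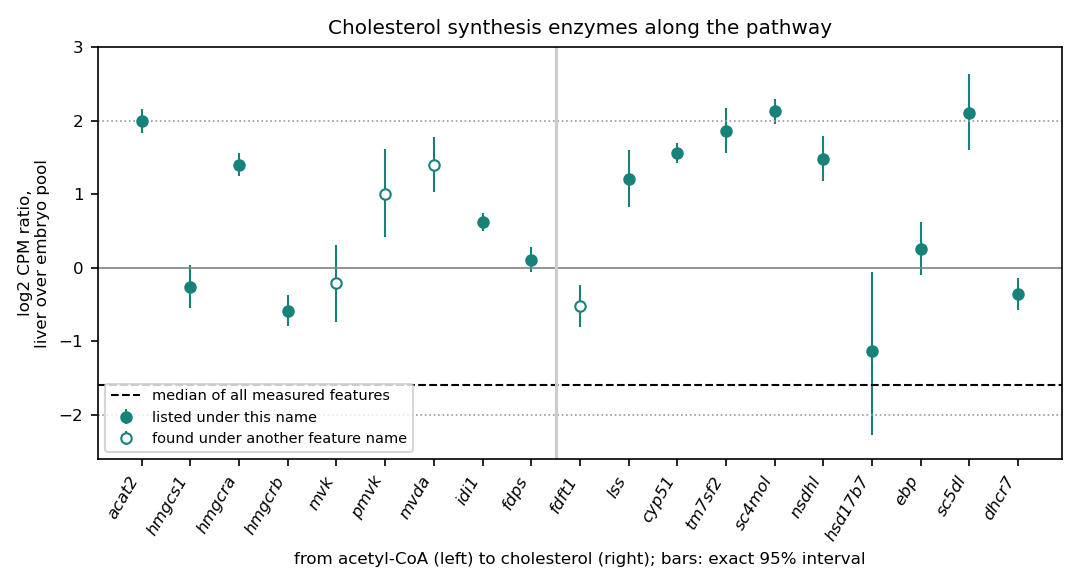
Log2 ratio, liver over embryo pool, of 19 cholesterol synthesis genes in pathway order, with exact 95% intervals as bars; the thin vertical line separates the steps up to farnesyl diphosphate from those that follow. Filled circles are genes listed under this name and open circles genes found under another feature name; the dashed line is the all-feature median of -1.60, and lss, cyp51, tm7sf2, sc4mol and nsdhl form a run between 1.21 and 2.13.

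Genes that supply these routes or complete their cycles held calls that differed between isozymes. In the list of NADPH and acetyl-CoA supply 4 of 11 measured genes were called higher in embryos, against 30.9% of all features, and none in livers, against 3.35%, with a median log2 ratio of -0.72. With TMM factors 2 were called higher in embryos, against 15.8% of all features, and pgd was called higher in livers at 4.77. Per exon length the most abundant in livers were the phosphogluconate dehydrogenase gene pgd, at 80.4 RPKM in livers and 44.8 RPKM in embryos, and the transketolase gene tktb, at 64.7 RPKM in livers and 81.3 RPKM in embryos. The other transketolase gene, tkta, had 29 liver counts (2.23 CPM) and 1794 embryo counts (157 CPM) and was 70.6-fold lower in livers (49.0 to 106). Of its 29 liver reads 2 lay in exons, and by exon reads the ratio of tkta was 0.00101 (0.000122 to 0.00366). The citrate carrier gene slc25a1a was 22.3-fold lower in livers (12.2 to 45.4). Its paralog slc25a1b was not called, with a ratio of 1.31 (1.09 to 1.57). It stood at 19.1 RPKM in livers and 14.6 RPKM in embryos, and 30.5% of its liver counts were unique. The mitochondrial malic enzyme genes me3 and me2 were 11.4-fold lower in livers (9.15 to 14.4) and 6.20-fold lower in livers (4.97 to 7.80). By exon reads the ratio of me2 was 0.0909 (0.0667 to 0.122). With TMM factors the calls of me2 and me3 were lost, whereas the opposite call of me1 was kept. Mitochondrial fatty acid synthesis had 1 of 7 measured genes called higher in livers and none in embryos, against 3.35% and 30.9% of all features. Its median log2 ratio was -0.10. The called gene was cbr4, a reductase subunit, with 332 liver counts (25.5 CPM) and 49 embryo counts (4.29 CPM) and a ratio of 5.94 (4.39 to 8.19), and the lipoate synthase gene lias followed it in abundance at 9.90 RPKM in livers and 10.5 RPKM in embryos. The 8 elongation partners, whose products complete each elongation cycle, had 3 genes called higher in embryos, a share near the 30.9% of all features. None was called higher in livers, against 3.35% of all features, and the median log2 ratio was -1.01. With TMM factors the calls of hsd17b12a and tecra were lost and hacd2 was called higher in livers, at 9.83. The dehydratase gene hacd1, known from muscle, was 13.3-fold lower in livers (10.9 to 16.4), beside muscle markers of 3.38 CPM in livers and 40705 CPM in embryos, whose part in this was not tested. The ketoreductase gene hsd17b12a was 8.97-fold lower in livers (7.25 to 11.2), or 16.3-fold lower by exon reads. Its paralog hsd17b12b was not called, at a ratio of 1.29 (1.15 to 1.44), with 26.4 RPKM in livers and 19.1 RPKM in embryos. The reductase gene tecra had 1 liver count (0.0768 CPM) and 25 embryo counts (2.19 CPM), a ratio of 0.0350 (0.000854 to 0.214). The most abundant partners in the liver library were hacd2, at 137 RPKM in livers and 35.2 RPKM in embryos with a ratio of 3.85 (3.57 to 4.15), and tecrb, at 84.7 RPKM in livers and 55.6 RPKM in embryos, whereas in the embryo library hacd1, at 43.0 RPKM, stood above hacd2.

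Lipid storage and sterol transport had calls in both directions, at shares in embryos near the 30.9% of all features. In the glycerolipid and droplet list 1 of 14 measured genes was called higher in livers and 5 in embryos, against 3.35% and 30.9% of all features. The median log2 ratio of the list was -0.79. TMM factors gave 2 and 3, against 8.06% and 15.8% of all features. The lipid droplet gene cideb had 1021 liver counts (78.4 CPM) and 88 embryo counts (7.71 CPM) and a ratio of 10.2 (8.17 to 12.8), and the monoglyceride lipase gene mgll followed it in abundance at 22.8 RPKM in livers and 25.3 RPKM in embryos. The monoacylglycerol acyltransferase gene mogat2, known from intestinal fat absorption, was 33.5-fold lower in livers (26.4 to 43.1), beside intestine markers of 83.3 CPM in livers and 1049 CPM in embryos, whose part in this was not tested. Only 286 of its 2054 embryo reads lay in exons, and by exon reads mogat2 was 14.9-fold lower. The seipin gene bscl2, needed for droplet formation, was 21.8-fold lower in livers (10.8 to 51.5). The droplet gene fitm1 had 0 liver counts and 100 embryo counts. With the floor of 3 counts per library fitm1 was 38.0-fold lower in livers, and the interval of its ratio ended at 0.0329. The related gene fitm2 had a ratio of 0.768 (0.630 to 0.937). In the list of sterol uptake, esterification and efflux 3 of 14 measured genes were called higher in livers and 4 in embryos. The shares of all features were 3.35% and 30.9%. The median log2 ratio of the list was 0.43. TMM factors gave 6 and 2, against 8.06% and 15.8% of all features. The cholesterol esterification gene soat1 had a ratio of 8.23 (5.74 to 12.2), with 310 liver counts (23.8 CPM) and 33 embryo counts (2.89 CPM). The LDL receptor gene ldlra had 1503 liver counts (115 CPM) and 203 embryo counts (17.8 CPM), a ratio of 6.49 (5.60 to 7.55), and none of its reads was unique, so its value is uncertain. The most distant call in embryos was mylipb, whose mammalian relative marks the LDL receptor for degradation, and it was 41.5-fold lower in livers (24.9 to 74.6). The sterol efflux gene abcg1 was 20.8-fold lower in livers (12.6 to 36.9), and abca1b was 11.7-fold lower in livers (5.41 to 30.2). By exon reads abcg1 was 67.9-fold lower and abca1b 31.2-fold lower. The paralog abca1a was not called, at a ratio of 1.23 (1.16 to 1.30), with 24.7 RPKM in livers and 20.3 RPKM in embryos. The lysosomal cholesterol genes npc2 and npc1 were the most abundant of the list, at 81.2 RPKM in livers and 41.1 RPKM in embryos and at 46.8 RPKM in livers and 24.1 RPKM in embryos. Unique reads were 29.8% of the liver counts of npc2 and 37.3% of its embryo counts, so its level is uncertain.

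Partners of sterol sensing and a list of other genes linked to sterol synthesis were also examined. Of 11 measured sensing partners none was called higher in livers, against 3.35% of all features, and 2 were called higher in embryos, against 30.9%. The median log2 ratio of the 11 was -0.35. TMM factors gave 2 and 1, against 8.06% and 15.8% of all features. The 2 were mbtps2, at 5.06, and ubxn8, at 7.18. Only 31 of the 199 liver reads of ubxn8 lay in exons, and 16.6% were unique. With library totals its ratio was 2.81 by total counts, 0.549 by exon reads and 0.548 by unique reads, so its call is uncertain. The transcription factor gene usf1 was 5.97-fold lower in livers (4.70 to 7.66). The ubiquitin ligase gene rnf145a had 0 liver counts and 228 embryo counts. With the same floor rnf145a was 86.7-fold lower in livers, and the interval of its ratio ended at 0.0143. Its paralog rnf145b was not called, with 419 liver counts and 740 embryo counts and a ratio of 0.496 (0.439 to 0.560). The most abundant partners in the liver library were amfra, whose mammalian relative marks HMG-CoA reductase for degradation, at 19.1 RPKM in livers and 15.8 RPKM in embryos, and usf2, at 13.7 RPKM in livers and 16.3 RPKM in embryos, whereas usf1 led in the embryo library at 21.1 RPKM. None of the 6 genes in the list of other sterol synthesis was called with library totals or TMM factors. Their median log2 ratio was -1.26, and cnbpa and cnbpb entered it although they do not encode enzymes of the route. These paralogs, which encode nucleic acid-binding proteins, were the most abundant of the list. The ratios of cnbpa and cnbpb were 0.428 and 0.409, and turned to 1.09 and 1.04 with TMM factors.

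The 44 genes together took 0.324% of the liver counts and 0.176% of the embryo counts, a ratio of 1.83 (1.80 to 1.87), or 4.68 with TMM factors. Without fads2 the sums were 30475 counts in livers and 19883 counts in embryos, a ratio of 1.34 (1.32 to 1.37), or 3.43 with TMM factors. The fads2 gene alone gave 27.7% of the counts of the 44 genes in livers and 1.24% in embryos.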

How the data were processed

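The members and gene lists were chosen with earlier results of these data known. The deposited files hold whole-number counts of reads per gene and read class, per the file headers. The authors also deposited RPKM values, which equalled exon reads scaled by exon length and library total within 0.0878 reads, and a median coverage signal that was not used. The sources used here do not name the aligner, the annotation or the build, so no coordinates or sequences are printed. Total gene reads, 13020149 in livers and 11408727 in embryos, were scaled by these totals. Ratios have Clopper-Pearson intervals on the conditional binomial (SciPy 1.17.1), for counting error only. The floor of 3 counts is 0.230 CPM in livers and 0.263 CPM in embryos. TMM factors came from edgeR 4.0.16. Names absent from the files were looked up in the RefSeq gene table of GRCz12tu, used for names only, which matched 18978 features. This completed 8 of 13 absent names and 3 prefix names, 1 name was present as sc4mol, and 4 had no match. Genes were named where called, most abundant, farthest from the median of their step, turned by TMM factors or paired as paralogs, and the other listed genes are named for completeness. Of the 7 other pathway lists, the 2 most abundant and up to 3 called genes farthest from 1 were named, with further genes where a comparison uses them. The 11 marker lists are given as sums or by gene. Size factors, other read classes, minimums, floors and a 2-fold rule were alternatives. The call rule was run on simulated Poisson counts with set folds, which hold counting error only and cannot test variation between samples.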

Additional observations from a re-analysis of the deposited data

How the results depend on the processing

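No paired analysis was possible because each source had 1 library. With TMM factors 16 of the listed genes were called higher in livers and 4 in embryos, at a median log2 ratio of 1.54. Size factors gave 16 and 4, at a median of 1.57. All features then had 1754 and 3427 calls and a median of -0.25 with TMM factors, and 1781 and 3362 calls and a median of -0.22 with size factors, which moved every log2 ratio by 1.35 and 1.38. A 2-fold rule called 14 and 10 of the 44 genes and 1404 and 11392 of all features. The all-feature median was -1.90 by exon reads and -1.41 with a minimum of 1 count. Unique reads gave 4 and 6 calls among the 42 listed genes then measured, beside 708 and 6224 among 20545 features. Exon reads gave 3 and 6 among 44, beside 677 and 7300 among 20044 features. A minimum of 50 counts gave 3 and 6 among 42, beside 660 and 5820 among 17177 features. A minimum of 1 count and a floor of 1 count also gave 3 and 6. Beside these stood 728 and 6730 calls, among 25187 features with that minimum and 21750 with that floor. Further alternatives were chosen after seeing the data. Adding the 11 genes found under other names gave 3 and 7 calls among 55 genes. Keeping the 31 genes with at least 80% unique reads in both libraries gave 2 and 4. All features, not filtered by unique reads, had 728 and 6730 calls among 21750 by the main rule. No called gene turned direction in these settings. Depth limits scdb, elovl4a, elovl4b, elovl7b, elovl6l and hsd17b7, with at most 12 liver counts each, and scd, with 10 embryo counts.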
